A study of Homo sapiens with 12 samples.

Results

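The SOX genes described here are the SOXB and SOXC transcription factors: the SOXB1 genes SOX1, SOX2 and SOX3, the SOXB2 gene SOX21, and the SOXC genes SOX4, SOX11 and SOX12. These 7 genes were chosen by symbol, out of 65969 gene identifiers in the deposited table, and each symbol matched 1 identifier. All 7 passed the filter on low counts, which left 24898 genes to test. Their levels were followed through 12 RNA libraries of human embryoid bodies, which are balls of differentiating pluripotent cells.

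SOX proteins bind DNA through an HMG box and act together with partner factors. SOX2, with OCT4, holds embryonic stem cells in the pluripotent state, and the SOXB1 proteins later keep neural progenitors dividing and undifferentiated. SOX21, the SOXB2 member, represses many of the genes that SOXB1 proteins activate. SOX4, SOX11 and SOX12 follow in the same lineage and activate genes of young neurons, although SOX4 and SOX11 are also widely expressed in other embryonic progenitors.

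The cells were H1 and MEL1, both established lines of human embryonic stem cells. Each line, per the labels, was transduced with lentiviral vectors for a doxycycline-inducible short hairpin RNA and selected with puromycin, and the labels do not say whether cells were cloned. The hairpin was a control (SCR) or targeted METTL14 (KD1, KD2 or KD3), which partners METTL3 in the methyltransferase that places N6-methyladenosine (m6A) on RNA. All groups, SCR included, were grown from 500 cells per microwell for 10 days with 2 µg/ml doxycycline. H1 has 2 libraries each of SCR, KD1, KD2 and KD3, and MEL1 has 1 SCR, 2 KD1 and 1 KD2 library. Nothing in the labels says that the libraries of a group came from separate cultures, so p-values measure the spread between these libraries, which may be technical.

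The MEL1 SCR library held 15963241 estimated counts and the other 11 between 36609628 and 43508287. METTL14 was listed at 29.8 and 43.8 CPM (counts per 1000000, scaled between libraries) in H1 SCR and at 8.90 to 17.7 CPM in the 6 H1 knockdown libraries. It stood at 49.9 CPM in MEL1 SCR and at 5.94 to 8.95 CPM in the 3 MEL1 knockdown libraries, so every knockdown library lay below every SCR library. The lines differed in their markers: summed over 8 neural progenitor genes, H1 libraries had 1212 to 1541 CPM and MEL1 libraries 457 to 670 CPM. Summed over 6 pluripotency genes, H1 had 1135 to 1376 CPM and MEL1 2112 to 3492 CPM. PAX6, a defining neural progenitor factor, was at 0.204 CPM in MEL1 SCR and 117 CPM on average in H1 SCR. HES5, LHX2, RAX and SIX3 of the same list were also under 1 CPM in MEL1 SCR and higher in H1 SCR. FABP7 was at 27.5 CPM against 230 CPM. The remaining markers were near equal: NES had 516 CPM in MEL1 SCR and 550 CPM in H1 SCR, and OTX2 125 and 126 CPM. Of 7 endoderm markers, SOX17, FOXA2, GATA4 and GATA6 were under 1 CPM in every library. AFP, APOA1 and TTR were highest in MEL1 KD2, at 7.90, 3.37 and 3.17 CPM. The endoderm sum was 16.0 CPM there, 5.96 in MEL1 SCR, 1.43 and 1.88 in MEL1 KD1 and at most 1.36 in H1.

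The upstream stretches of 3 of the genes are shown as examples. SOX2 and SOX21 were higher in the H1 knockdown libraries, and SOX12 was not called there. A link between these stretches and the levels was not tested. Each is the 250 bases before the RefSeq gene start on GRCh38.p14, written 5′ to 3′ on the gene's strand, with CCAAT or its reverse complement ATTGG in capitals.
SOX2, chr3:181711675-181711924, plus strand: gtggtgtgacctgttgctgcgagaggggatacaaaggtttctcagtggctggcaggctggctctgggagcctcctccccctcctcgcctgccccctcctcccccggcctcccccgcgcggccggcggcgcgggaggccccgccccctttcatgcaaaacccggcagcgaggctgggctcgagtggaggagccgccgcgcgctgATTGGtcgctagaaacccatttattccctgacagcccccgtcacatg
SOX21, chr13:94712546-94712795, minus strand: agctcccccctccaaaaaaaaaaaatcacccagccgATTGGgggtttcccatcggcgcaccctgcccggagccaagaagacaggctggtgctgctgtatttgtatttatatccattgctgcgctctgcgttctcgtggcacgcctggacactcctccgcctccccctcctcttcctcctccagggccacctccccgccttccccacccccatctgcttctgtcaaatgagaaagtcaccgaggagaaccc
SOX12, chr20:325302-325551, plus strand: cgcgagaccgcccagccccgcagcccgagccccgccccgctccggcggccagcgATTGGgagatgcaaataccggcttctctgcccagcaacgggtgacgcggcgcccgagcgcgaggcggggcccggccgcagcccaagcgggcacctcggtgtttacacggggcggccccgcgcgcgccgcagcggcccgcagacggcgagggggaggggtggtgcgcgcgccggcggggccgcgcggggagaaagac

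RefSeq promoter entries matched 6 of the 7 genes. CCAAT, the letters that the factor NF-Y recognises, occurred on either strand in 5 of these 6 windows and in 32.0% of the 35116 RefSeq promoter windows of the same length. In the windows shown, the match began 47 bases before the start of SOX2, 214 before SOX21 and 196 before SOX12. The SOX12 window also held ATGCAAAT, the octamer bound by POU factors, 188 bases before the start, letters present in 1.63% of all windows. The SOX2 window held ACAAAG, a SOX-type core, 220 bases before the start; ACAAAG or ACAATG was present in 21.2% of all windows. The SOX21 window held TATAAA as its reverse complement, and 10.7% of all windows held it on either strand. SOX1 was the window with no CCAAT, and the SOX4 window, not shown, held 4 matches. A match describes letters only, and the files hold no binding data.

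The genes share a compact structure: GENCODE release 29 lists 1 transcript for each of the 7. Transcript GC content ran from 47.7% in SOX11 through 50.7% in SOX2 and in SOX4 and 55.3% in SOX21 to 59.4% in SOX1, 62.0% in SOX12 and 63.3% in SOX3, against a median of 48.65% over 22569 tested genes. GGACT, a common form of the sequence at m6A sites, occurred 12 times in SOX12 (2.59 per kilobase) and 5 times in SOX3 (2.35 per kilobase), where the median of tested genes was 0.919 per kilobase. It occurred 8 times in SOX4, 7 in SOX11, 3 in SOX2 and 1 time in SOX1, and SOX21 had 0. These are counts of letters, and m6A was not measured. Estimated counts were exactly whole, with no tolerance, in all 12 libraries for SOX3 and SOX12, in 11 for SOX4, 10 for SOX21, 2 each for SOX1 and SOX2 and 0 for SOX11. Values that are not whole arise where a quantifier divides reads between similar transcripts, so small differences in SOX1, SOX2 and SOX11 may be less certain. How many reads were divided was not measured. Some values lay close to a whole number, such as 70.018 for SOX1 in MEL1 SCR.

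Per transcript length, SOX2 was the most abundant of the 7 genes in every library. In H1 it averaged 218 ± 42.8 CPM per kilobase (SD, n = 8), and in MEL1 131 ± 31.6 (SD, n = 4). SOX4 came next in H1, at 49.9 ± 15.9 CPM per kilobase. SOX21 followed at 38.9 ± 11.3 and SOX11 at 36.0 ± 7.05, and these 3 overlapped one another over the H1 libraries. SOX12 averaged 22.4 ± 2.03 CPM per kilobase in H1 and lay below SOX11 with no overlap. SOX3 averaged 16.2 ± 3.56 and SOX1 8.26 ± 3.29, the lowest of the 7 in H1, with overlapping ranges. In MEL1 the levels of SOX4, SOX21, SOX12 and SOX11 overlapped in turn, from 23.0 ± 2.11 down to 15.8 ± 6.48 CPM per kilobase. SOX1 and SOX3 stood far below them there, at 2.50 ± 0.56 and 1.94 ± 0.52 CPM per kilobase, so that MEL1 ranked SOX3 last while H1 ranked SOX1 last.

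**Figure D1:**
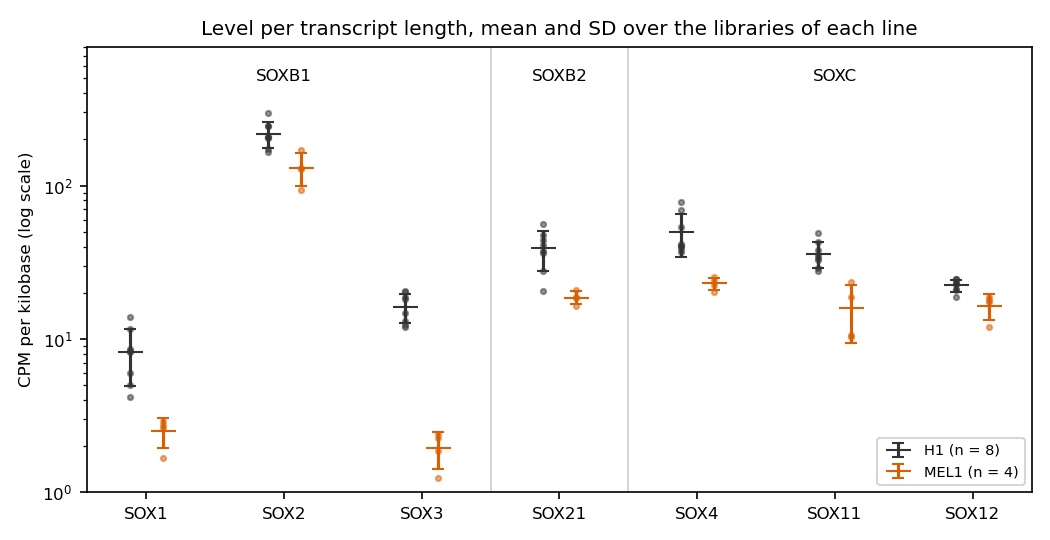
Level of each gene per transcript length (CPM per kilobase, log axis), with points for libraries and bars for the mean and SD over the 8 H1 libraries (black) and the 4 MEL1 libraries (orange). SOX2 is the highest in both lines, and SOX1 and SOX3 are the lowest and lie further below in MEL1.

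All 7 genes were lower in MEL1 than in H1 when SCR, KD1 and KD2 were compared between lines (edgeR quasi-likelihood test, 7 of 7 past an adjusted p of 0.05). Of all genes tested, 49.1% were called in this comparison and 26.2% were called lower. The difference was largest for SOX3, a SOXB1 gene of early neural and pituitary tissue: the 8 H1 libraries ran from 25.6 to 43.7 CPM with a median of 35.0, and the 4 MEL1 libraries had 2.66, 3.96, 5.14 and 4.81 CPM. The groups did not overlap, and the log2 difference was -3.27 ± 0.18 (SE, edgeR adjusted p = 1.34e-07). SOX1, a marker of committed neural progenitors, had 11.9 to 39.7 CPM in H1 with a median of 23.6, and 4.77, 7.52, 7.80 and 8.35 CPM in MEL1. Its log2 difference was -1.48 ± 0.18 (edgeR adjusted p = 5.70e-05), again with no overlap. SOX12 showed the smallest difference, -0.49 ± 0.09 (edgeR adjusted p = 0.000764), and -0.17 ± 0.06 (edgeR adjusted p = 0.039) with each library's dependence on GC content and length taken out. Of the 7 genes, 5 had every MEL1 library below every H1 library, as did 13.1% of tested genes. The exceptions were SOX2 and SOX21, for which the MEL1 SCR library stood at the level of H1 SCR: SOX2 had 428 CPM in MEL1 SCR and 417 and 436 CPM in H1 SCR, and SOX21 had 57.8 CPM against 57.2 and 77.0 CPM. In bulk RNA, fewer cells of a type and less RNA per cell cannot be told apart. The summed neural progenitor and pluripotency markers given above moved with the line, and their part in these differences was not tested.

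**Figure D2:**
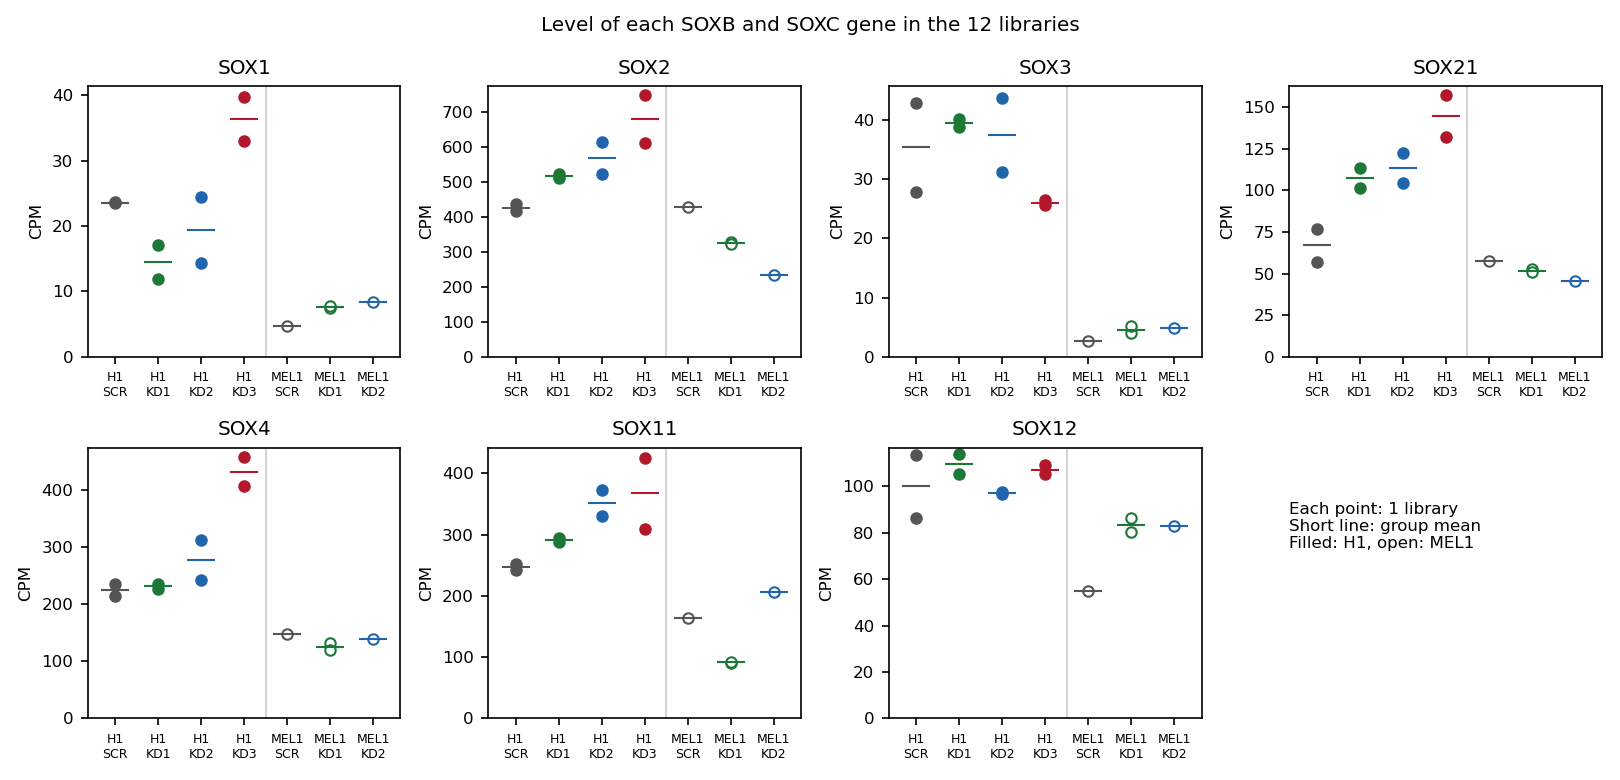
CPM of each gene in the 12 libraries by line and hairpin, with a point for each library and a short line for the group mean, on axes that start at 0. SOX21 lies above SCR in every H1 knockdown library, SOX4 stands apart in H1 KD3, and SOX2 lies below SCR in every MEL1 knockdown library.

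In H1, the mean of the hairpins was above SCR for SOX21, SOX2, SOX4 and SOX11, and SOX1, SOX3 and SOX12 were not called. KD1 did not share the SOX4 rise: its libraries had 236 and 227 CPM, beside 236 and 215 CPM in SCR. Averaged over the 3 hairpins, 4 of the 7 genes passed the edgeR test and all 4 rose, where 7.16% of all genes were called and 2.23% were called higher. The median log2 fold change of all tested genes was 0.0056. SOX21 rose most, by 0.85 ± 0.13 on the log2 scale, a factor of 1.80. SOX2 rose 1.37-fold, SOX11 1.36-fold and SOX4 1.34-fold. SOX2 is a SOXB1 gene, SOX21 the SOXB2 gene, and SOX4 and SOX11 the more abundant SOXC genes. The SOXB1 genes SOX1 and SOX3 and the SOXC gene SOX12 were not among those called.

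SOX21 had 77.0 and 57.2 CPM in H1 SCR, 101 and 113 in KD1, 104 and 123 in KD2, and 132 and 157 in KD3. Every knockdown library lay above both SCR libraries, and KD3 lay above the other hairpins. The edgeR adjusted p was 0.00676 for the average of the hairpins. SOX21 was also the only one of the 7 genes called with each hairpin by itself: with KD1 the log2 fold change was 0.68 ± 0.15 (edgeR adjusted p = 0.0202), with KD2 0.76 ± 0.15 (0.0391) and with KD3 1.11 ± 0.16 (0.00588). The 3 comparisons share the H1 SCR libraries. With KD1 and with KD2 it was the 1 gene called of the 7, and with KD3 it was called with SOX2 and SOX4, 3 of the 7. Of all tested genes, 11.1% were called with KD1 and 4.25% were called higher, with KD2 1.54% and 0.691%, and with KD3 2.98% and 1.19%. The difference between the hairpins in SOX21 was not past the threshold (edgeR adjusted p = 0.212).

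SOX2 had 436 and 417 CPM in H1 SCR, 523 and 512 in KD1, 523 and 614 in KD2, and 610 and 749 in KD3. All 6 knockdown libraries were above both SCR libraries. The log2 fold change averaged over hairpins was 0.46 ± 0.11 (SE, edgeR adjusted p = 0.0313). With KD3 by itself it passed the threshold, at 0.67 ± 0.13 (edgeR adjusted p = 0.0232). With KD2 it did not pass as fitted, but DESeq2 called it (0.42, adjusted p = 0.0286), as did edgeR with the GC and length trend removed (0.47, adjusted p = 0.0478). The difference between hairpins did not pass (edgeR adjusted p = 0.197). In pluripotent cells SOX2 binds many enhancers together with OCT4, encoded by POU5F1. POU5F1 fell in H1, from 60.4 CPM on average in SCR to 27.7 in the knockdown libraries (log2 fold change -1.13 ± 0.21, edgeR adjusted p = 0.0191).

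SOX11, a SOXC factor of newborn neurons, had 251 and 241 CPM in H1 SCR, 294 and 287 in KD1, 330 and 373 in KD2, and 309 and 425 in KD3. The 6 knockdown libraries were all above SCR. The average log2 fold change was 0.44 ± 0.12 with an edgeR adjusted p of 0.0492. In edgeR no hairpin passed by itself, and KD3 came nearest (0.57 ± 0.14, edgeR adjusted p = 0.0565). DESeq2 called SOX11 with KD2 (adjusted p = 0.0161) and with KD3 (adjusted p = 0.00338). In edgeR it was called with KD3 at a mean of 1 CPM (adjusted p = 0.0461) or without the first KD3 library (adjusted p = 0.0221), and with both hairpins under no filter.

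SOX2, SOX11 and SOX21 were the 3 of the 7 genes whose H1 knockdown libraries all lay above both SCR libraries, and 8.66% of tested genes had this pattern. SOX4, the other abundant SOXC factor, did not. It had 236 and 215 CPM in SCR, 236 and 227 in KD1, 242 and 313 in KD2, and 408 and 458 in KD3. KD1 lay within the SCR range and KD3 stood clear of every other H1 library. The average over hairpins was called (0.43 ± 0.11, edgeR adjusted p = 0.0465), with KD3 alone at 0.94 ± 0.14 (edgeR adjusted p = 0.00656) and KD1 at 0.04 ± 0.13 (edgeR adjusted p = 0.907).

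These H1 calls rest on 2 SCR libraries. Without the second H1 SCR library, 0 of the 7 genes were called in the average of the hairpins and 0.496% of all genes; the log2 fold changes were then 0.65 for SOX21 (edgeR adjusted p = 0.0969), 0.42 for SOX2, 0.36 for SOX4 and 0.41 for SOX11. Without the second KD3 library, which had the highest level of all 12 libraries for SOX1, SOX2, SOX4, SOX11 and SOX21, 0 of the 7 were called with KD3, with SOX21 at 0.98 (edgeR adjusted p = 0.0534) and SOX4 at 0.86 (edgeR adjusted p = 0.0618). In the average of the hairpins SOX21 was the only gene of the 7 still called without the first SCR library, either KD1 library, the second KD2 library or the second KD3 library. SOX4, SOX11 or both were also lost without the first KD2 library, the first KD3 library or either MEL1 KD1 library, and both were lost with a non-robust fit or with the H1 libraries fitted by themselves. With KD3, SOX2 was lost without either SCR library. The SOX21 calls with KD1 and with KD2 ended without the second SCR library or either KD1 library, and that with KD2 also without either KD2 or either MEL1 KD1 library and with a non-robust fit. With KD3, SOX21 was lost without the second KD3 library and stayed called without any other. Other cell markers moved with these groups: 4 endothelial markers summed to 159 and 163 CPM in H1 SCR and 66.1 to 91.2 CPM in knockdown, nearly all of it KDR, while PECAM1 was at most 1.77 CPM in any library. The sum of 7 neural crest markers was 312 and 348 CPM in SCR and 242 to 300 CPM in knockdown. The sum of 6 neuronal markers was 314 and 317 CPM in SCR and 217 to 288 in knockdown, and that of the neural progenitor markers 1220 and 1256 CPM against 1212 to 1541. Their part in the SOX values was not tested.

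**Figure D3:**
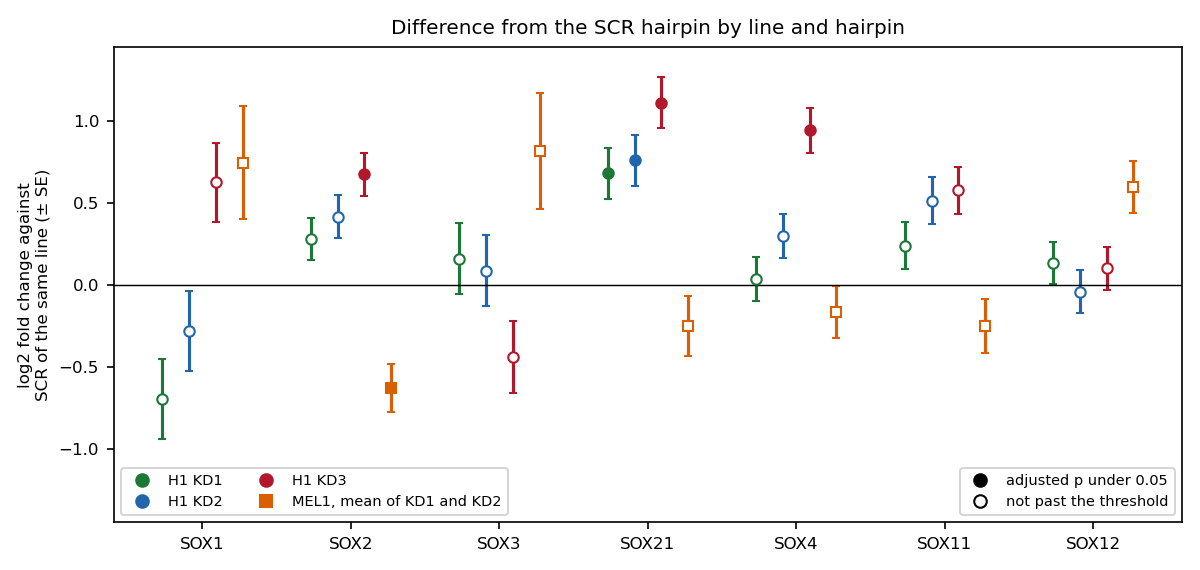
Log2 fold change against SCR of the same line, ± SE, for each gene and H1 hairpin (circles) and for the mean of KD1 and KD2 in MEL1 (squares), filled where the edgeR adjusted p was under 0.05. SOX21 is filled for the 3 H1 hairpins, and SOX2 is filled above 0 for H1 KD3 and below 0 for MEL1.

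The H1 hairpins acted unequally on SOX1 and SOX4. In the edgeR test of unequal effect, 2 of the 7 genes passed, where 3.54% of all genes did. SOX4 had an adjusted p of 0.0112 and SOX1 of 0.0294. SOX1 had 23.5 and 23.7 CPM in SCR, 11.9 and 17.2 in KD1, 24.4 and 14.3 in KD2, and 33.0 and 39.7 in KD3. Its KD1 libraries were below SCR and its KD3 libraries above, and the mean over hairpins left no difference from SCR (-0.12 ± 0.20, edgeR adjusted p = 0.775). KD3 exceeded KD1 by 1.32 ± 0.25 in SOX1 (edgeR adjusted p = 0.0177) and by 0.90 ± 0.14 in SOX4 (edgeR adjusted p = 0.00672), the 2 of the 7 genes called, where 4.63% of all genes were called and 2.61% were higher in KD3. Between KD2 and KD1, 0 of the 7 genes were called by edgeR or DESeq2, with 0.851% of all genes called. There, 0 of the 7 had an unadjusted edgeR p under 0.05, beside 3850 of all 24898 genes tested. Between KD3 and KD2, 0 of the 7 were called by edgeR (SOX4 0.64 ± 0.14, adjusted p = 0.0537), with 1.01% of all genes called. At an unadjusted edgeR p under 0.05 there were 4 of the 7, beside 2786 of all 24898 genes tested. DESeq2 called SOX1 and SOX4. METTL14 itself had 11.1 and 11.0 CPM in KD1, 17.7 and 14.8 in KD2, and 8.90 and 13.5 in KD3. Its part in the differences between hairpins was not tested. Leaving out either H1 KD1 library or the second KD3 library ended both calls of unequal effect and both of KD3 minus KD1, with edgeR adjusted p from 0.0697 to 0.083 for the unequal effect on SOX4. The SOX1 call also ended without the first KD3 library or either MEL1 KD1 library (edgeR adjusted p from 0.051 to 0.168 over these libraries).

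SOX3 and SOX12 were not called between the H1 groups by edgeR as fitted. SOX3 had 42.9 and 27.8 CPM in SCR, 38.7 and 40.2 in KD1, 31.3 and 43.7 in KD2, and 25.6 and 26.5 in KD3. Both KD3 libraries lay below every other H1 library. KD3 had an unadjusted p of 0.0191 against KD1 and 0.035 against KD2, and under no filter edgeR called SOX3 for unequal hairpins (adjusted p = 0.0182) and for KD3 minus KD1 (-0.60, adjusted p = 0.0124). The average log2 fold change was -0.07 ± 0.18 with an interval of ± 2 SE from -0.42 to 0.29. SOX12, the third SOXC factor, had 114 and 86.5 CPM in SCR and 97.0 to 114 CPM, with a median of 105, in the 6 knockdown libraries. The groups overlapped, and the log2 fold change of 0.06 ± 0.11 had an interval from -0.15 to 0.28.

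In MEL1, SOX2 fell with knockdown. It had 428 CPM in the SCR library, 329 and 323 in KD1 and 233 in KD2. Every knockdown library was lower than SCR and KD2 was the lowest. The mean log2 fold change over KD1 and KD2 was -0.63 ± 0.15 (edgeR adjusted p = 0.0386), and SOX2 was the only one of the 7 genes called, where 4.45% of all genes were called and 1.51% were called lower. The SCR group is 1 library, assumed in this fit to vary like the other groups. Without the KD2 library the value was -0.39 (edgeR adjusted p = 0.143), and the call also ended without either KD1 library of MEL1 or of H1, with values from -0.65 to -0.63. The neural progenitor sum was 670 CPM in MEL1 SCR and 457 to 541 CPM in the 3 knockdown libraries. Most of it was NES, at 516 CPM in SCR, 376 on average in KD1 and 412 in KD2, and OTX2 and FABP7 were also lower. The other markers of the sum, PAX6, HES5, LHX2, RAX and SIX3, were higher than in SCR, with group means of at most 2.92 CPM. The pluripotency sum was 3040 CPM in SCR, 3171 and 3492 in KD1 and 2112 in KD2, where SOX2 was lowest. The part of these sums in the SOX2 value was not tested.

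The other MEL1 values did not pass the edgeR test as fitted. SOX21 went from 57.8 CPM in SCR to 52.5 and 51.0 in KD1 and 45.5 in KD2, and SOX4 from 148 to 132, 119 and 140. SOX12 had 55.1 CPM in SCR, 80.5 and 86.4 in KD1 and 83.1 in KD2 (0.60 ± 0.16, edgeR adjusted p = 0.0599). It was called by DESeq2 (adjusted p = 0.0315), under no filter, and without the KD2 library or either H1 SCR library. SOX2, SOX4 and SOX21 were below SCR in all 3 knockdown libraries, a pattern of 25.7% of tested genes, and SOX1, SOX3 and SOX12 were above it in all 3, a pattern of 31.7%. SOX11 lay on both sides of SCR: 163 CPM in SCR, 90.4 and 92.7 in KD1 and 206 in KD2. Without the KD2 library its log2 fold change was -0.84 (edgeR adjusted p = 0.0187), against -0.25 with it. The KD2 library also had the highest sum of 7 neural crest markers of all 12 libraries, 681 CPM against 337 in MEL1 SCR and 243 and 289 in MEL1 KD1. Its sum of 6 surface ectoderm markers was the highest too, 270 CPM against 168 in MEL1 SCR and 83.0 and 89.0 in MEL1 KD1. The same held for its endoderm sum of 16.0 CPM. The part of these sums in the SOX11 value was not tested. MEL1 has 1 KD2 library, and a difference between KD1 and KD2 was not tested there.

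SOX1, SOX12 and SOX3, the 3 genes above SCR in MEL1 knockdown, are the 3 with the highest GC content among the 7. Libraries differed in how their counts followed GC content. Over 15600 genes of at least 1 CPM, the Spearman correlation of a gene's deviation from its line's mean with its transcript GC content was -0.55 in MEL1 SCR, 0.35 and 0.42 in MEL1 KD1 and -0.057 in MEL1 KD2. In H1 it was 0.22 and -0.42 in the SCR libraries, 0.30 and 0.55 in KD1, -0.21 and 0.11 in KD2 and 0.010 and -0.50 in KD3. With the dependence of each library on GC content and length taken out, the MEL1 value of SOX12 became 0.03 ± 0.11, that of SOX3 0.19 ± 0.29 and that of SOX1 0.29 ± 0.39. SOX21 in MEL1 went the other way, from -0.25 to -0.52 ± 0.16 (edgeR adjusted p = 0.0895). SOX2 in MEL1 then stood at -0.70 ± 0.14 (edgeR adjusted p = 0.0186). In H1 SOX21 stood at 0.85 ± 0.11 and SOX2 at 0.53 ± 0.10, SOX4 was still called (0.37 ± 0.10, edgeR adjusted p = 0.0372), and SOX11 was no longer called (0.35 ± 0.12, edgeR adjusted p = 0.0779).

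**Figure D4:**
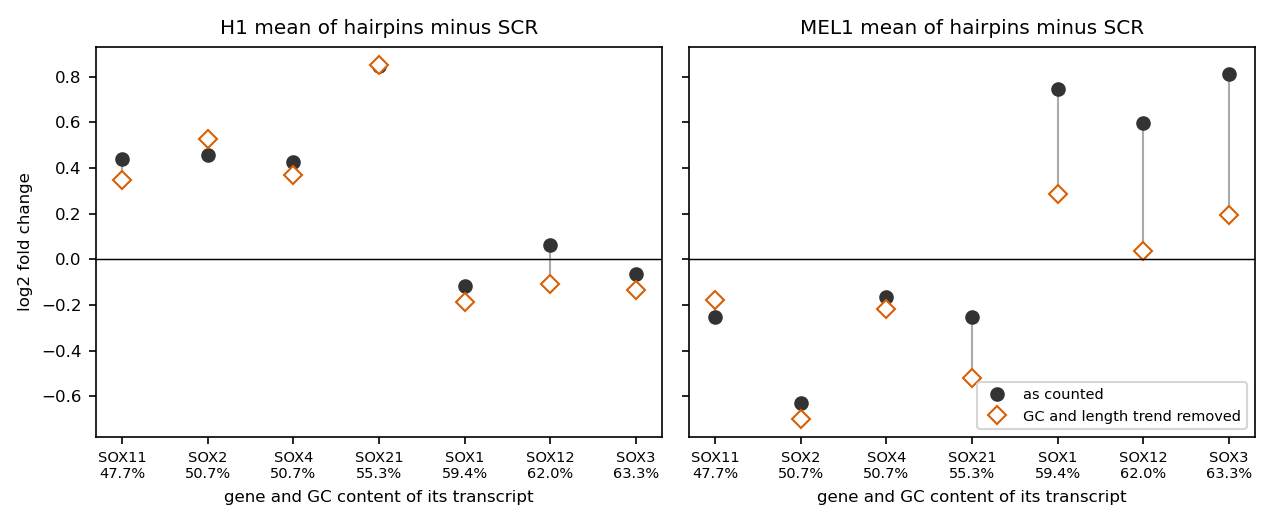
Log2 fold change of each gene against SCR, as counted (black) and with its library's dependence on GC content and length taken out (orange), in H1 and MEL1, with genes ordered by transcript GC content. In MEL1 the values of SOX1, SOX12 and SOX3 move toward 0, while SOX2 in both lines and SOX21 in H1 keep their direction.

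The effect on SOX2 differed between the lines. The mean effect of KD1 and KD2, the hairpins both lines have, was lower in MEL1 than in H1 by 0.98 ± 0.19 on the log2 scale (edgeR adjusted p = 0.0483), and SOX2 was the only one of the 7 called, where 0.598% of all genes were called and 0.145% were called lower. The median of all genes in this comparison was 0.11, and 0.0092 under upper-quartile scaling, where SOX2 was at -1.08. SOX21 was close behind at -0.97 ± 0.23 (edgeR adjusted p = 0.0724), and passed with the GC and length trend removed (-1.21 ± 0.20, edgeR adjusted p = 0.017). The test takes the MEL1 SCR library to vary like the other groups. Leaving out any library of H1 SCR, H1 KD1, H1 KD2, MEL1 KD1 or MEL1 KD2 ended the SOX2 call, with differences from -1.04 to -0.67. The call also ended with a filter at a mean of 1 CPM (edgeR adjusted p = 0.0502) and with a non-robust fit (edgeR adjusted p = 0.0564). Over both lines together, with line as a covariate, 0 of the 7 genes were called by edgeR and 0 by DESeq2; SOX21 had an unadjusted p of 0.0339 and no other of the 7 was under 0.05. In that comparison 0.213% of all genes were called, and 3918 of 24898 had an unadjusted edgeR p under 0.05.

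The SOXB1 and SOXC sums were both higher in H1 knockdown than in SCR. Summed per transcript length, SOX1, SOX2 and SOX3 had 202 and 187 CPM per kilobase in H1 SCR and 228 to 324 in the knockdown libraries. SOX4, SOX11 and SOX12 had 93.7 and 83.1 CPM per kilobase in H1 SCR and 96.3 to 150 in knockdown. Every knockdown library was above SCR in both sums, and the ratio of SOXB1 to SOXC stayed between 2.07 and 2.38 in all 8 H1 libraries. In MEL1 the SOXB1 sum was 173 CPM per kilobase in SCR, 136 and 134 in KD1 and 98.1 in KD2. The SOXC sum was 56.0 in SCR, 50.3 and 49.7 in KD1 and 65.4 in KD2. The ratio was therefore 3.09 in MEL1 SCR, 2.69 in each KD1 library and 1.50 in KD2. These sums are descriptions with no test, and the summary used changes the ratio. As a mean of log2 levels over the genes, which weights them equally, the log2 ratio was -0.0066 in H1 SCR and -0.23 in H1 knockdown. In MEL1 that summary turned the direction, from -1.27 in SCR to -0.96 in knockdown, where the ratio of sums went from 1.63 to 1.15. Without division by length the log2 ratio in H1 SCR was -0.24.

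The make-up of each sum also differed. SOX2 supplied 85.9% to 91.9% of the SOXB1 sum in H1 and 94.7% to 98.3% in MEL1, so that sum is close to a reading of SOX2. SOX4 supplied 54.2% and 52.2% of the SOXC sum in the H1 KD3 libraries and 40.2% to 45.6% in the other 6 H1 libraries. The ratio of SOX4 to SOX11 per transcript length was 1.97 and 1.61 in KD3 and 1.09 to 1.40 in the rest of H1. In MEL1 it was 1.35 in SCR, 2.17 and 1.92 in KD1 and 1.01 in KD2.

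**Figure D5:**
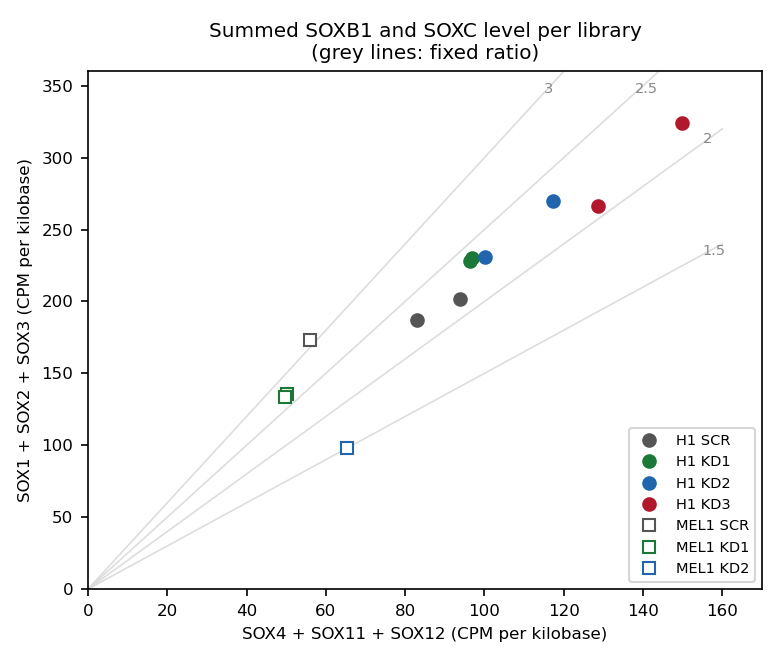
Summed SOXB1 level against summed SOXC level (CPM per kilobase) in each of the 12 libraries, with grey lines of fixed ratio; filled circles are H1 and open squares MEL1. The 8 H1 libraries lie along a ratio of about 2.07 to 2.38, and the MEL1 libraries run from 3.09 in SCR to 1.50 in KD2.

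Across the 8 H1 libraries the levels of SOX2, SOX21, SOX4 and SOX11 followed one another. The Pearson r of log2 CPM was 0.94 between SOX2 and SOX11, 0.94 between SOX2 and SOX21 and 0.89 between SOX2 and SOX4. It was 0.87 between SOX21 and SOX11, 0.78 between SOX21 and SOX4 and 0.76 between SOX4 and SOX11. These are the genes called higher in the average of the H1 hairpins, so their r takes in that group difference. SOX1 and SOX3 were inversely related (r = -0.79), and SOX12 followed none of the others closely, at most 0.46 with SOX21. These values describe libraries that share hairpins and library trends. Among 10317 genes of at least 10 CPM, the pattern of SOX2 was most like that of SMIM14 (r = 0.990), HDAC9 and AHCYL2, and that of SOX21 most like ME3 (r = 0.984), YEATS2 and LRIG1. SOX1 was most like NALF2 (r = 0.996), TTC9 and MTSS1, and SOX3 most like CD81 (r = 0.943), MEX3D and ADAMTS4. For the SOXC genes, SOX4 was most like MAX (r = 0.968), EFEMP1 and SMOC1, SOX11 most like FZD1 (r = 0.969), DCAF8 and ZNF91, and SOX12 most like ELFN1 (r = 0.947), BCR and MLLT1.

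Noncoding RNAs lie beside 3 of the genes, and none shares an exon base with its neighbour in GENCODE release 29. SOX2-OT, the long RNA in whose intron SOX2 sits, had 3.38 and 3.67 CPM in H1 SCR, 5.29 and 4.46 in KD1, 4.26 and 3.42 in KD2, and 9.11 and 13.6 in KD3. KD3 was far above the rest, with a log2 fold change of 1.68 ± 0.24 (edgeR adjusted p = 0.00638), and the hairpins were unequal (edgeR adjusted p = 0.0101). Its rise with KD3 was larger than that of SOX2, but the 2 were not tested against each other. SOX21-AS1, which begins on the opposite strand beside SOX21, had 9.71 and 8.99 CPM in H1 SCR and 10.2 to 18.4 CPM in the knockdown libraries. All 6 were above SCR, a pattern of 8.66% of tested genes, and KD3 was called (0.80 ± 0.17, edgeR adjusted p = 0.0351), in 12 of 20 settings. That call was lost with thinning and without either SCR, either KD1, either KD2 or the second KD3 library. In MEL1, SOX2-OT had 7.89 CPM in SCR, 4.85 and 4.52 in KD1 and 4.00 in KD2. SOX21-AS1 had 8.996 CPM in SCR, 6.04 and 5.82 in KD1 and 4.54 in KD2. Both lay below SCR in all 3 knockdown libraries, as did SOX2, SOX21 and 25.7% of all tested genes. Neither passed the threshold (edgeR adjusted p = 0.099 and 0.0562). SOX21-AS1 did pass with RLE or upper-quartile scaling, a filter at a mean of 1 CPM, or DESeq2. SOX1-OT was at 0.27 to 2.75 CPM. It was lower in MEL1 than in H1 (-1.03 ± 0.34, edgeR adjusted p = 0.0245) and was not called by edgeR in the comparisons of hairpins. Without the second KD3 library SOX2-OT was not called with KD3 either (edgeR adjusted p = 0.0566).

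Partner and target genes of these factors were called in both directions in H1. Of the 10 genes tested that partner SOX2 or depend on it in pluripotent cells, 3 fell and 0 rose in the average of the hairpins: POU5F1, NANOG (-0.96 ± 0.22, edgeR adjusted p = 0.0326) and ZFP42 (-0.57 ± 0.11, edgeR adjusted p = 0.0163). Of all genes, 7.16% were called in this comparison, 2.23% higher and 4.93% lower. The list's median was 0.12, and that of all genes 0.0056. POU5F1 and ZFP42 were lost without either SCR library, and NANOG also without either KD1 library or the second KD3 library. The hairpins differed: NANOG averaged 6.58 CPM in H1 SCR, 1.63 in KD1, 3.04 in KD2 and 7.70 in KD3, so it did not fall with KD3. With KD3 by itself, 8 of the 10 genes were higher and 2 lower, with 1 called in each direction. Of all genes, 2.98% were called with KD3. Of 16 SOXB1 partner and target genes of neural progenitors, 4 rose and 2 fell in the average of the hairpins, with a median of 0.04, beside the 2.23% and 4.93% of all genes. PAX6, which binds DNA together with SOX2, rose by 0.77 ± 0.19 (edgeR adjusted p = 0.039), and LHX2, a forebrain and eye field factor, by 0.65 ± 0.14 (0.0233). PAX6 was called in 14 of 21 settings. It was lost with the GC and length trend removed (edgeR adjusted p = 0.116), with thinning (0.0597), and without the second SCR library, either KD1 library, the second KD2 or the second KD3 library. LHX2 was lost without the second SCR, KD1 or KD2 library. The radial glia genes FABP7 and SLC1A3 fell in the average, by 0.72 ± 0.12 (edgeR adjusted p = 0.00946) and by 0.87 ± 0.12 (0.00368). FABP7 averaged 230 CPM in SCR, 95.3 in KD1 and 128.5 in KD2, but 222 in KD3, near SCR.

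Of 16 SOXC target and neuronal genes, 1 rose and 3 fell, with a median of -0.21, beside the 2.23% and 4.93% of all genes. GAP43, a growth cone protein, fell from 43.1 CPM on average in H1 SCR to 21.0 in knockdown (-1.06 ± 0.10, edgeR adjusted p = 0.000579). STMN2 and STMN1, which bind tubulin, fell by 0.67 ± 0.09 (edgeR adjusted p = 0.00345) and 0.60 ± 0.10 (0.0107), and RBFOX3, the NeuN antigen of mature neurons, rose by 0.74 ± 0.17 (0.0302). GAP43 and STMN2 were called in 21 of 21 settings. STMN1 was lost without either SCR library, and RBFOX3 with thinning and without either SCR library, either KD1 library or the second KD2 library. Of 11 proneural factors and of 11 other SOX genes tested, 0 were called in the average of the hairpins by edgeR and 2 in each list by DESeq2, with medians of 0.12 and 0.20. At an unadjusted edgeR p under 0.05 there were 3 proneural factors and 4 other SOX genes, beside 5783 of all 24898 genes tested. Over both lines, STMN1 was the only gene of these lists called (-0.59 ± 0.11, edgeR adjusted p = 0.0487). That call held in 11 of 22 settings. It was lost with H1 by itself (edgeR adjusted p = 0.0579) and without any library other than the second MEL1 KD1 or the MEL1 KD2 library. Without the second H1 SCR library, 0 genes of the pluripotent list and 0 of the neural progenitor list were called in H1.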

How the data were processed

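Total RNA of 12 libraries was prepared with a stranded kit, per the labels' protocols. The authors deposited 1 table of estimated counts for 65969 gene identifiers, and fastp and kallisto are named in the submitters' processing notes, with no version. The build, annotation and use of strand are not given in the sources used here. Estimated counts were rounded, genes were filtered with filterByExpr, libraries were scaled by TMM, and differences were tested with edgeR 4.0.16 (robust quasi-likelihood fit, limma 3.58.1, R 4.3.3) and Benjamini-Hochberg adjustment over 24898 genes. The threshold for a call was an adjusted p of 0.05. One model of 7 group means gave every comparison except that over both lines, which had line as a covariate. CPM are TMM-scaled, and lengths and GC content are of GENCODE release 29. Library totals of 15963241 to 43508287 set the counting precision. The procedure was also run on simulated data, with planted changes larger than any knockdown difference of the 7 genes. That run therefore cannot show how well changes of the size reported here are found.

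The 7 genes and all gene lists were chosen with earlier results of these data known. Genes named are the members, METTL14, the adjacent noncoding RNAs SOX2-OT, SOX1-OT and SOX21-AS1, the 3 genes with the highest r to each member, and up to 4 called genes of each list with the largest change. Markers are named only with the sums they belong to. Replicates differed by more than sampling noise (chi-square per degree of freedom of at least 20.7), so each library was counted once. Alternatives were RLE and upper-quartile scaling, no filter or a mean of 1 CPM, DESeq2 1.42.0, a non-robust fit, thinning to the smallest library, removal of each library's GC and length trend, H1 by itself, lines weighted equally, and leaving out each library.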

Additional observations from a re-analysis of the deposited data

Results flagged for a closer look

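As fitted, the effect of knockdown on SOX2 differed between the lines, a call that held in 8 of 19 settings. The mean effect of KD1 and KD2 in MEL1 minus that in H1 was -0.98 on the log2 scale. The MEL1 SCR library was assumed to vary like the other groups. In H1 the 3 hairpins had unequal effects on SOX1 (edgeR adjusted p = 0.0294), SOX4 (0.0112) and SOX2-OT (0.0101). The SOX1 call held in 14 of 20 settings and the SOX4 call in 17 of 20. The SOX2-OT result ended without the second KD3 library (edgeR adjusted p = 0.0882). A search for single libraries standing apart was run among the 6 H1 knockdown libraries. It covered the 7 genes, the 3 adjacent noncoding RNAs and the SOXB1 to SOXC ratio. It found none past Dixon's critical value of 0.625, where chance gives about 1 in 20. These libraries are pairs from 3 hairpins, and a high pair leaves a small gap, so the search cannot exclude such a library. The second KD3 library was the highest of them for SOX1, SOX2, SOX4, SOX11, SOX21 and the 3 noncoding RNAs.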

How the results depend on the processing

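All 7 genes were called lower in MEL1 than in H1, and 0 of 7 were called over both lines, under every alternative run. In the average of the H1 hairpins, 4 genes were called, 2 with a non-robust fit, 2 with H1 by itself, 3 with the GC and length trend removed, 3 with thinning, and 0 to 4 with a library left out. KD1 gave 1 call, 2 with no filter, and 0 to 2 with a library left out. KD2 gave 1 call, 2 with no filter, 0 with a non-robust fit, 2 with the GC and length trend removed, 3 by DESeq2, and 0 to 1 with a library left out. KD3 gave 3 calls, 5 with no filter, 4 by DESeq2, 4 with a filter at a mean of 1 CPM, and 0 to 4 with a library left out. Unequal hairpins gave 2 calls, 3 with the GC and length trend removed, 3 with no filter, and 0 to 2 with a library left out. MEL1 gave 1 call, 3 with no filter, 2 by DESeq2, and 0 to 2 with a library left out. The difference between lines gave 1 call, 3 with no filter, 0 with a filter at a mean of 1 CPM, 0 with a non-robust fit, 2 with the GC and length trend removed, 3 by DESeq2, and 0 to 1 with a library left out. The other settings kept each count. The cause was not tested.

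The log2 ratio of SOXB1 to SOXC was 1.14 in H1 SCR, -0.24 without division by length and -0.0066 as a mean of log2 levels. In H1 knockdown it was 1.18, -0.22 and -0.23, in MEL1 SCR 1.63, 0.25 and -1.27, and in MEL1 knockdown 1.15, -0.15 and -0.96.

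Directions changed only for log2 fold changes that were not called. Over both lines, SOX1 was -0.0064 with H1 by itself and -0.011 to 0.29 with a library left out, SOX2 -0.088 with lines weighted equally and -0.066 to 0.47 with a library left out, and SOX3 -0.062 with the GC and length trend removed, -0.029 with H1 by itself and -0.036 to 0.49 with a library left out. With the trend removed, SOX12 was -0.060 over both lines, -0.11 in the H1 average, -0.18 with KD1 and 0.23 for KD3 minus KD1; SOX3 was -0.090 with KD1 and 0.13 for KD2 minus KD1, and SOX11 was -0.0047 for KD3 minus KD2. With a library left out, SOX3 ran from -0.34 to 0.29 in the H1 average, -0.12 to 0.53 with KD1, -0.19 to 0.43 with KD2 and -0.34 to 0.15 for KD2 minus KD1. SOX12 ran from -0.12 to 0.29 in the H1 average, -0.051 to 0.37 with KD1, -0.23 to 0.17 with KD2, -0.084 to 0.31 with KD3 and -0.13 to 0.023 for KD3 minus KD1. SOX1 ran from -0.72 to 0.050 with KD2 and -0.018 to 0.75 for KD2 minus KD1. SOX4 ran from -0.029 to 0.14 with KD1, SOX21 from -0.042 to 0.19 for KD2 minus KD1, and SOX11 from -0.19 to 0.28 for KD3 minus KD2.

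Calls over all genes ran from 11 to 2478 for both lines (53 as reported), 123 to 3256 for the H1 average (1783), 206 to 4160 for KD1 (2758), 64 to 1745 for KD2 (384), 108 to 2290 for KD3 (741), 154 to 3384 for unequal hairpins (881), 507 to 2703 in MEL1 (1107) and 34 to 1369 for the difference between lines (149). No paired analysis was possible because the labels carry no replicate numbers. MEL1 SCR is 1 library, so MEL1 comparisons without it gave no value.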
